A study of Arabidopsis thaliana with 36 samples.

Results

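The 42 genes described here are nuclear genes of Arabidopsis thaliana for the light-harvesting antennae and the subunits of photosystems I and II, chosen by gene family among the 34218 features that were counted. They comprise 6 LHCA genes (antenna of photosystem I), 14 LHCB genes (antenna of photosystem II), 10 PSB genes (photosystem II subunits) and 12 PSA genes (photosystem I subunits). The choice used gene names and no measured value, but it was made with earlier results of these data known. Of the 42, 41 passed the filter on low counts in shoots and 33 in roots.

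RNA sequencing was done on roots and rosettes (the shoot libraries) of plants 42 days old, with 3 biological replicates for each genotype and tissue and 36 libraries in all. The 6 genotypes were wild type Col-0, wild type Col-4, the single mutants nlp2-2, nlp2-3 and nlp7-1, and the double mutant nlp2-3 nlp7-1. NLP2 and NLP7 are NIN-like proteins, transcription factors of the nitrate response. All groups shared sand culture with 5 mM nitrate, a supply described as non-limiting, in short days of 8 h light at 150 μmol m-2 s-1, with 21 °C in the light and 18 °C in the dark. Only the titles separate Col-4 from Col-0, since all samples carry the ecotype Col-0. The parent wild type of each mutant and the hour of harvest are not stated, and each allele is represented by 1 line, so an effect of the allele and of another difference between lines cannot be told apart.

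Photosystem II splits water at a manganese cluster shielded by extrinsic subunits on the inner side of the thylakoid membrane, and photosystem I passes electrons on to ferredoxin. The LHCB and LHCA proteins carry most of the chlorophyll of leaves and pass the energy of absorbed light to the reaction centres, whose core subunits are encoded in the plastid, while the antennae and many peripheral subunits are encoded in the nucleus. In leaves these nuclear genes are among the most strongly expressed, and their transcripts are known to respond to light, the circadian clock, sugar and nitrogen supply.

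The libraries held 18150510 to 31657474 counts in shoots and 18385020 to 28538665 in roots. The targeted genes followed the labels in shoots: NLP2 stood at 53.7 ± 1.18 CPM (counts scaled to a common library size; mean ± SD, n = 3) in Col-0, 16.1 ± 0.689 in nlp2-3 and 9.06 ± 0.547 in the double mutant, and NLP7 at 48.6 ± 0.417 in Col-0, 21.2 ± 2.50 in nlp7-1 and 23.6 ± 2.11 in the double mutant. The other allele, nlp2-2, left NLP2 at 28.8 ± 1.35 CPM against 41.5 ± 2.75 in Col-4. In roots NLP2 stood at 65.8 ± 0.780 CPM in Col-0, 36.8 ± 3.07 in nlp2-3, 93.6 ± 6.70 in nlp7-1 and 49.4 ± 3.69 in the double mutant, a log2 change of -0.84 in nlp2-3, 0.51 in nlp7-1 and -0.41 in the double mutant, each called. NLP7 in roots stood at 103 ± 10.3 CPM in Col-0, 35.1 ± 2.74 in nlp7-1 and 41.3 ± 0.253 in the double mutant. For the other nlp2 allele the root level of NLP2 was 18.1 ± 4.33 CPM in nlp2-2 against 55.4 ± 1.49 in Col-4. Counts of a disrupted gene can come from transcripts that make no working protein, and the positions of the insertions are not stated. The tissues were as labelled: 10 root markers summed to 0.763 to 1.70 CPM in shoot libraries against 470.2 to 678 in root libraries, and 4 mesophyll markers (CA1, RBCS1A, RCA and GAPB) to 34294 to 40972 CPM in shoot libraries against 7.79 to 18.6 in root libraries.

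In Col-0 shoots the 42 genes took 12.6 ± 0.463% of all counts (SD, n = 3). The LHCB class took 6.26 ± 0.226%, the PSB class 2.57 ± 0.0981%, the LHCA class 1.99 ± 0.0708% and the PSA class 1.78 ± 0.0762%. Per unit of transcript length, in FPKM (fragments scaled by transcript length and library size), LHCB1.3 (AT1G29930), a gene for the main trimeric antenna protein of photosystem II, was the most abundant at 16161 ± 414 FPKM. PSBR (AT1G79040), a small photosystem II subunit, followed at 5717 ± 233 FPKM, and LHCA4 (AT3G47470), a photosystem I antenna protein that carries far-red absorbing chlorophylls, at 5161 ± 107 FPKM. LHCB5 (AT4G10340), a monomeric antenna protein linking the trimers to the core, came next at 4965 ± 131 FPKM, less than the sum of both SDs below LHCA4. The lowest measured levels were those of PSAG (AT1G55670), a photosystem I subunit that borders the antenna, at 92.4 ± 13.2 FPKM, and LHCB4.3 (AT2G40100), a rare isoform of the monomeric antenna protein CP29, at 102 ± 4.99 FPKM, which did not differ beyond their SDs. Of the minor photosystem I antenna genes LHCA6 stood at 144 ± 3.57 FPKM and LHCA5 at 181 ± 2.32 FPKM.

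LHCB1.5 had 0 counts in all 36 libraries. In the TAIR10.1 annotation it overlaps the protein-coding gene AT2G34410 and a long non-coding RNA. Close copies share sequence: of the stretches of 100 bases in the transcripts, 9.87% in LHCB2.1 and 12.4% in LHCB2.2 occur at another place in the genome, as do 1.51 to 4.44% in the 5 LHCB1 genes, so the split of reads within these groups is uncertain. The other genes of the 42 hold no such stretch. Some genes, LHCB6, LHCB2.3, PSBP1, PSAE1, PSAG and PSAN among them, overlap an annotated neighbour, and their counts are uncertain where the counting did not use strand, which is not given in the sources used here.

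**Figure D1:**
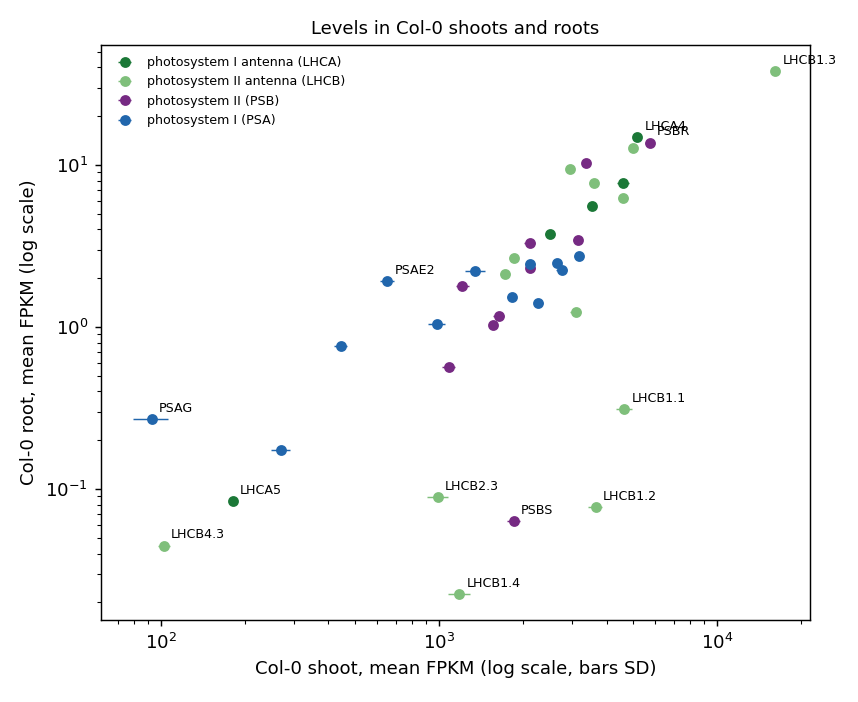
Mean FPKM in Col-0 shoots (horizontal log axis) and in Col-0 roots (vertical log axis) for the 40 genes above 0 in roots, colored by class, over 3 libraries each; horizontal bars are the SD in shoots. LHCB1.3 is highest on both axes. LHCA5, LHCB1.2, LHCB1.4, LHCB2.3, LHCB4.3 and PSBS had 0 to 5 counts in each Col-0 root library, and PSAE1 and PSAG had 1 to 10. The place of these genes on the root axis is not resolved.

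The promoters shown are those of PSBQ1 (AT4G21280) and PSBQ2 (AT4G05180), a pair of genes for the same extrinsic photosystem II protein that changed unequally, of LHCB4.3, which was lower in nlp7-1, and of PSBS (AT1G44575), the 1 gene that was higher in the double mutant. The sequences run from 250 bases before to 50 bases after the annotated start, 5′ to 3′ on the gene's strand, from the TAIR10.1 assembly with its RefSeq annotation (PSBQ1 at chr4:11334102-11334401 on the plus strand, PSBQ2 at chr4:2673194-2673493 on the minus strand, LHCB4.3 at chr2:16745378-16745677 on the plus strand and PSBS at chr1:16869971-16870270 on the plus strand). Capitals mark the G-box (CACGTG), the I-box (GATAAG) and the CCAATC element, on either strand.
PSBQ1: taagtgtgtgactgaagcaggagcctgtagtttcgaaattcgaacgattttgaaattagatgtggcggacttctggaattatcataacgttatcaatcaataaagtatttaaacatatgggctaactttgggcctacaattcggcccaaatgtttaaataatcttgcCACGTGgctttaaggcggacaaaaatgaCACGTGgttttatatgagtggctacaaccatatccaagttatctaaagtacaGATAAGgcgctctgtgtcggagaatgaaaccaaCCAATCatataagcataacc
PSBQ2: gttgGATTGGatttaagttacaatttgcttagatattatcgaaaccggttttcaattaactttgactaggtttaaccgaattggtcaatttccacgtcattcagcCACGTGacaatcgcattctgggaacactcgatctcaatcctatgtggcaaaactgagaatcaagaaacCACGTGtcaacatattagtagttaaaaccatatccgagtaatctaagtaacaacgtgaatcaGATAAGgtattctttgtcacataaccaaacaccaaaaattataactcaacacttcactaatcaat
LHCB4.3: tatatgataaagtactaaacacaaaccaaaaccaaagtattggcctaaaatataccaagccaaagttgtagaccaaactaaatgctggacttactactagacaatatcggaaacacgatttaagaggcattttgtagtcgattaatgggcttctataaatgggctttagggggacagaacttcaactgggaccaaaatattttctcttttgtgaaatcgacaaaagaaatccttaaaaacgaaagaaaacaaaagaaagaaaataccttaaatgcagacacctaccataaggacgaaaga
PSBS: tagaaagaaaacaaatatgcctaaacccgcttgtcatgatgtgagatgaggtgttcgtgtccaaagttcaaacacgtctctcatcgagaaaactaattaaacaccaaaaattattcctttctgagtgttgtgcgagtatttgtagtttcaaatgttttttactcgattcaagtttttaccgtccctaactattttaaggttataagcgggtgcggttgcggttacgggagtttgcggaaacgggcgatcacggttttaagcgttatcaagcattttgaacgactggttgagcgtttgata

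PSBQ1 and PSBQ2 both held 2 G-boxes, 1 I-box and 1 CCAATC element in this window, and LHCB4.3 and PSBS held none of these. Over the 42 windows, 14 (33.3%) held a G-box against 7.68% of 27443 windows of the same length over all protein-coding genes, and 6 of the 14 belonged to PSB genes. The I-box was found in 17 windows (40.5%, against 14.6% of all windows), 8 of them of PSA genes. The CCAATC element was found in 15 windows (35.7%, against 12.3%), 8 of them of LHCB genes. The evening element (AAATATCT) was found in the window of LHCA5 (2.38%, against 5.65%), and the core of the nitrate-responsive element (CTTNNNNNNNNNNAAG) in 5 (11.9%, against 9.72%), those of LHCB5, PSBX, PSAD2, PSAG and PSAN. Both strands were searched, and none of the motifs contains another. A match is a run of letters, not a tested binding site.

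In double mutant shoots the transcripts of both photosystems and both antennae were lower than in Col-0. With edgeR's quasi-likelihood test over 19137 genes (called at a Benjamini-Hochberg adjusted p under 0.05), 33 of the 41 measured genes were lower and 1 was higher, where 15.6% of all genes tested were called lower and 15.5% higher (31.1% in all). The median change of the 41 genes was -0.26 on the log2 scale, or -16.3%, while the median over all genes tested was -0.01. The changes ran from -0.69 to 0.21. By class, 4 of 6 LHCA, 10 of 13 LHCB, 9 of 10 PSB and 10 of 12 PSA genes were lower, with medians of -0.27, -0.24, -0.24 and -0.27. In CPM, every double mutant library was below every Col-0 library for 36 of the 41 genes, as for 22.6% of all genes tested. In bulk RNA, fewer cells of a type and less RNA per cell cannot be told apart.

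**Figure D2:**
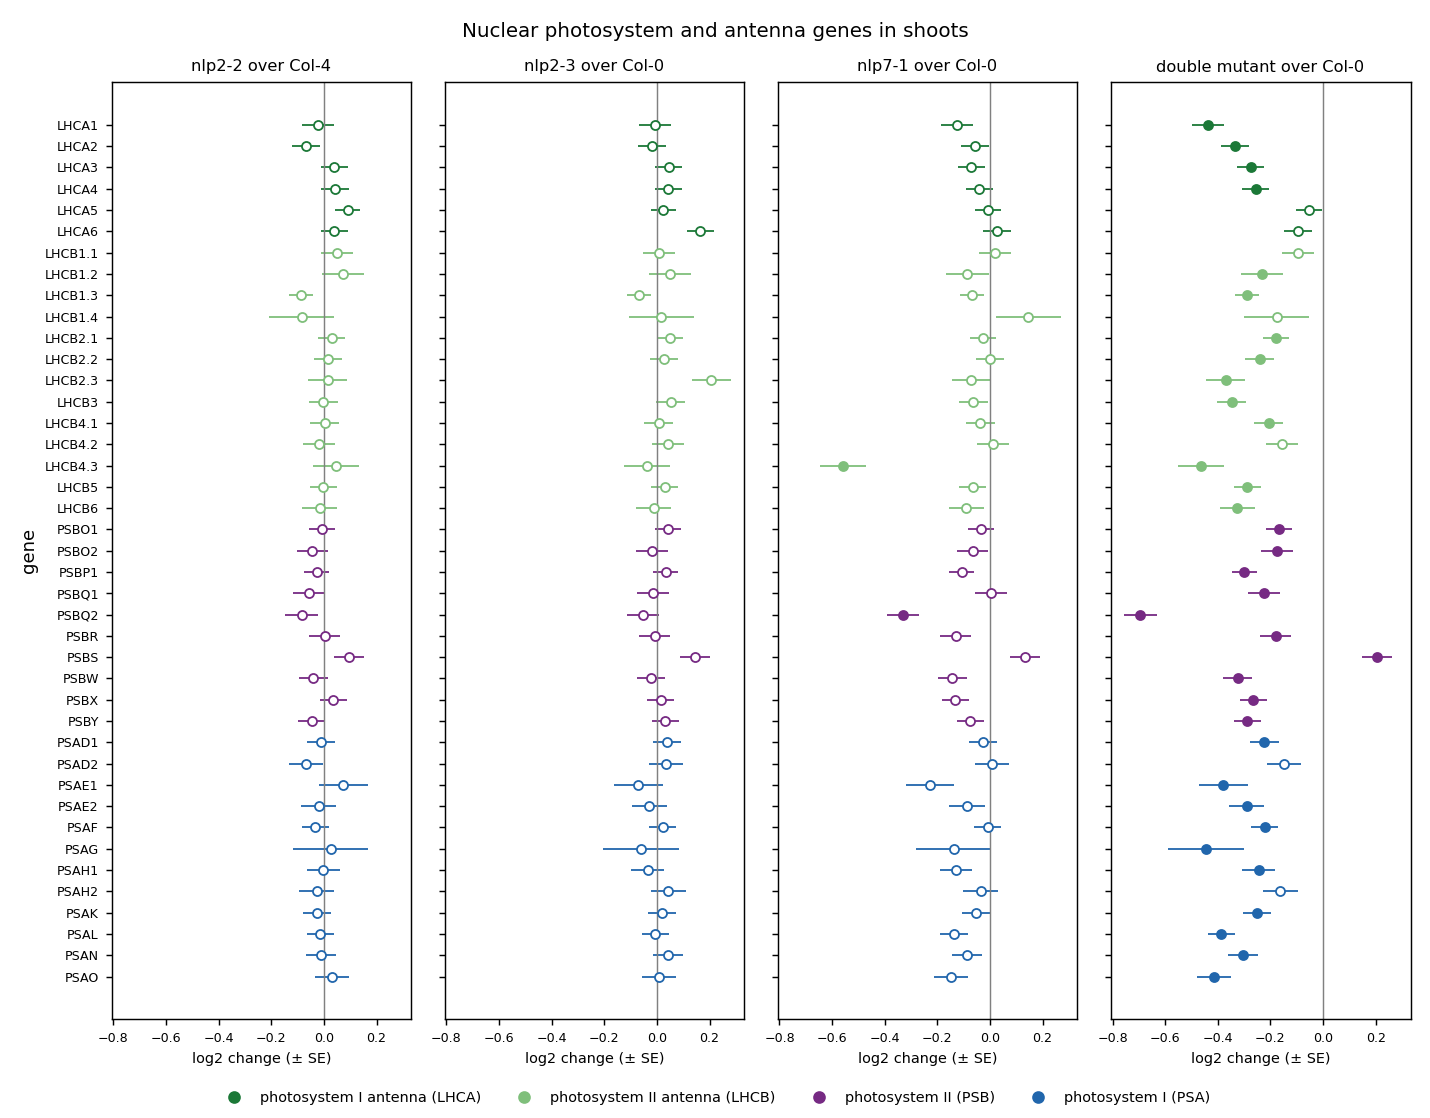
Log2 change with its SE for the 41 measured genes (rows, colored by class) in 4 comparisons of shoots (panels); filled points have an edgeR adjusted p under 0.05. No point is filled in the nlp2-2 and nlp2-3 panels, LHCB4.3 and PSBQ2 are filled in the nlp7-1 panel, and 33 points are filled left of 0 in the double mutant panel, with PSBS filled on the right.

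Among the extrinsic subunits that shield the manganese cluster, PSBQ2 showed the largest change of the 41 genes in the double mutant. Its levels were 1926, 1755 and 1783 CPM in the 3 Col-0 libraries, 1549, 1414 and 1383 in nlp7-1, and 1188, 1143 and 1046 in the double mutant. The libraries of the 3 genotypes did not overlap. PSBQ2 fell by 0.69 ± 0.06 on the log2 scale (SE; edgeR adjusted p = 4.7e-09) in the double mutant, by 0.33 ± 0.06 (adjusted p = 0.00086) in nlp7-1, and by 0.36 ± 0.06 (adjusted p = 0.00034) from nlp7-1 to the double mutant. In nlp2-3 its levels were 1924, 1691 and 1647 CPM, which overlapped those of Col-0.

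Its paralog PSBQ1 changed less. PSBQ1 stood at 1528, 1454 and 1471 CPM in Col-0, 1579, 1407 and 1476 in nlp7-1, and 1337, 1255 and 1219.7 in the double mutant. The double mutant lay below Col-0, and nlp7-1 overlapped it. PSBQ1 differed from Col-0 by -0.22 ± 0.06 in the double mutant (edgeR adjusted p = 0.0056) and by 0.00 ± 0.06 in nlp7-1 (adjusted p = 0.99).

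The log2 ratio of PSBQ1 to PSBQ2 counts was -0.29 ± 0.03 in Col-0, 0.04 ± 0.05 in nlp7-1 and 0.18 ± 0.04 in the double mutant (SD, n = 3), without overlap between the 3 genotypes. The exact two-sided permutation p was 0.1 for the double mutant and for nlp7-1 against Col-0, the smallest that 3 against 3 libraries allow, and 0.25 after adjustment over the 5 paralog pairs. For the other pairs the same difference between double mutant and Col-0 was 0.01 for PSBO1 to PSBO2, -0.08 for PSAD1 to PSAD2, -0.09 for PSAE1 to PSAE2 and -0.08 for PSAH1 to PSAH2.

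The other extrinsic proteins of photosystem II were lower by smaller amounts in the double mutant. PSBP1 (AT1G06680), which aids calcium and chloride binding at the cluster, went from 3928, 3874 and 3608 CPM in Col-0 to 3237, 3045 and 2990.3, and the groups did not overlap. PSBP1 fell by 0.30 ± 0.05 (edgeR adjusted p = 2.7e-05), PSBO1 by 0.17 ± 0.05 (adjusted p = 0.011) and its isoform PSBO2 by 0.17 ± 0.06 (adjusted p = 0.027). The small membrane subunits PSBW, PSBY and PSBX fell by 0.33, 0.29 and 0.26, and PSBR by 0.18. Without Col-0 replicate 1 the calls of PSBO1, PSBO2 and PSBR were lost, at -0.14, -0.13 and -0.15; PSBO2 and PSBR also lost theirs when replicate 2 of Col-0 or replicate 3 of the double mutant was left out, and PSBO2 when replicate 2 of the double mutant was.

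PSBS, the photosystem II protein that switches the antenna to heat dissipation in excess light, went the other way. Its levels were 2594, 2563 and 2304 CPM in Col-0, 2807, 2678 and 2764 in nlp2-3, 2797, 2729 and 2657 in nlp7-1, and 2985, 2839 and 2784 in the double mutant. It stood at 2544, 2808 and 2284 CPM in Col-4 and 2753, 2740.4 and 2664 in nlp2-2. All libraries of the 4 mutants lay above all Col-0 libraries, and those of Col-4 overlapped both Col-0 and the mutants. PSBS rose by 0.21 ± 0.06 on the log2 scale in the double mutant (15.4%; edgeR adjusted p = 0.0073), a call lost without Col-0 replicate 3, the lowest of its group, at 0.15. The difference from Col-0 was 0.13 ± 0.06 (adjusted p = 0.16) in nlp7-1 and 0.14 ± 0.06 (adjusted p = 0.17) in nlp2-3.

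**Figure D3:**
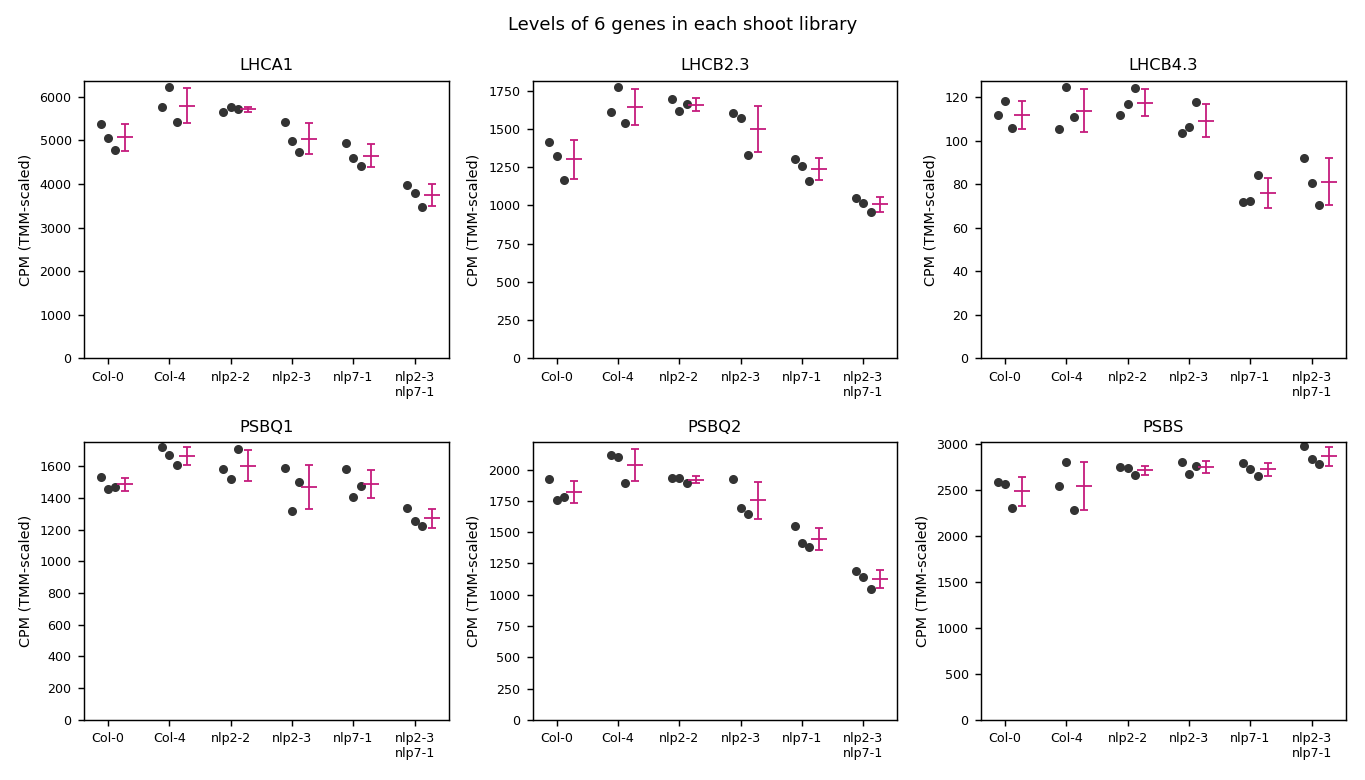
TMM-scaled CPM of 6 genes in each of the 18 shoot libraries (points), with the mean and SD of each genotype. PSBQ2 is lower in nlp7-1 and lower still in the double mutant, LHCB4.3 is at overlapping levels in these mutants, and PSBS has its highest mean in the double mutant.

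In the photosystem II antenna, LHCB4.3 was already lower in nlp7-1. It stood at 112, 118 and 106 CPM in Col-0, 103, 106 and 118 in nlp2-3, 71.9, 72.1 and 84.0 in nlp7-1, and 92.2, 80.7 and 70.6 in the double mutant. The nlp7-1 and double mutant libraries overlapped each other and lay below those of the other 4 genotypes. LHCB4.3 fell by 0.56 ± 0.09 (edgeR adjusted p = 0.00032) in nlp7-1 and by 0.46 ± 0.09 (adjusted p = 0.00038) in the double mutant, and the double mutant differed from nlp7-1 by 0.10 ± 0.09 (adjusted p = 0.6). Its CP29 relatives LHCB4.1 and LHCB4.2 differed from Col-0 by -0.21 ± 0.05 (adjusted p = 0.005) and -0.16 ± 0.06 (adjusted p = 0.051) in the double mutant, and by -0.04 and 0.01 in nlp7-1.

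Among the genes of the trimeric antenna, LHCB2.3 (AT3G27690) had the largest change in the double mutant. It stood at 1415, 1320.4 and 1166 CPM in Col-0, 1607, 1568 and 1328 in nlp2-3, 1301, 1257 and 1158 in nlp7-1, and 1049, 1014 and 956 in the double mutant. The double mutant lay below all other genotypes, and both single mutants overlapped Col-0. LHCB2.3 fell by 0.37 ± 0.07 (edgeR adjusted p = 0.00058), LHCB3 by 0.35 ± 0.05 (adjusted p = 2e-05) and LHCB1.3 by 0.29 ± 0.05 (adjusted p = 2.5e-05). LHCB1.3 went from 20495, 19656 and 19278 CPM in Col-0 to 16745, 16289.8 and 15618 in the double mutant, without overlap. LHCB2.1 and LHCB2.2, which take part in state transitions, fell by 0.18 and 0.24.

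LHCB1.1 and LHCB1.4 were not called, at -0.10 ± 0.06 (edgeR adjusted p = 0.25) and -0.18 ± 0.12 (adjusted p = 0.32). LHCB1.2 fell by 0.23 ± 0.08 (adjusted p = 0.034), a call lost under 5 of 16 other settings: with no filter on low counts, and when any of 4 libraries was left out (replicate 1 or 2 of Col-0, replicate 2 or 3 of the double mutant). The monomeric antenna genes LHCB6, for CP24, and LHCB5, for CP26, fell by 0.33 and 0.29.

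In the photosystem I antenna the 4 main proteins of the antenna belt, LHCA1 to LHCA4, were all lower in the double mutant. LHCA1 (AT3G54890) stood at 5376, 5062 and 4769 CPM in Col-0, 4931, 4587 and 4410.0 in nlp7-1, and 3986, 3782 and 3473 in the double mutant. The double mutant lay below both other genotypes, which overlapped each other. LHCA1 fell by 0.44 ± 0.06 (edgeR adjusted p = 5.4e-06), LHCA2 by 0.33, LHCA3 by 0.28 and LHCA4 by 0.26. LHCA5 and LHCA6, which are known to link photosystem I to the chloroplast NADH dehydrogenase-like complex, were not called, at -0.05 ± 0.05 (adjusted p = 0.44) and -0.09 ± 0.05 (adjusted p = 0.18).

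Of the photosystem I subunits, 10 of 12 were lower in the double mutant. PSAL (AT4G12800), which with PSAO and the PSAH proteins takes part in docking the mobile antenna, stood at 3535, 3332 and 3239.6 CPM in Col-0 and 2722, 2576 and 2436 in the double mutant, and the groups did not overlap. PSAL fell by 0.39 ± 0.05 (edgeR adjusted p = 3.2e-06) and PSAO by 0.41 ± 0.06 (adjusted p = 2.7e-05). PSAG fell by 0.45 ± 0.14 (adjusted p = 0.031), a call lost without any of 4 libraries (replicate 1 or 3 of Col-0, replicate 2 or 3 of the double mutant). PSAE1, a stromal subunit near the ferredoxin site, fell by 0.38 ± 0.09 (adjusted p = 0.0045) and its isoform PSAE2 by 0.29. PSAN, the lumenal subunit that helps plastocyanin to act, fell by 0.30, PSAK by 0.25 and PSAF, the plastocyanin docking subunit, by 0.22. PSAD2 and PSAH2 were not called, at -0.15 ± 0.06 (adjusted p = 0.086) and -0.16 ± 0.07 (adjusted p = 0.068), while their isoforms PSAD1 and PSAH1 fell by 0.22 and 0.24.

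In the single nlp2 mutants edgeR called 0 of these genes in shoots. In nlp2-2 against Col-4 3.06% of all genes tested were called (0.737% higher and 2.33% lower), 0 of the 41 had an unadjusted p under 0.05, and DESeq2 and limma called 0. The 41 changes ran from -0.09 to 0.10. In nlp2-3 against Col-0 5.8% of all genes tested were called (1.33% higher and 4.47% lower), 3 of the 41 had an unadjusted p under 0.05, DESeq2 called 0 and limma called 1, and edgeR called 1 without Col-0 replicate 1 or nlp2-3 replicate 3. With the replicate number as a block, which pairs the libraries in this comparison, 3 of 41 genes were called, a share near the 7.87% of all genes tested that were called in that fit, all higher in nlp2-3: LHCA6 (0.17), LHCB2.3 (0.21) and PSBS (0.15).

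In nlp7-1 against Col-0, LHCB4.3 and PSBQ2 were the 2 genes called, both lower, where 4.93% of all genes tested were called lower and 4.84% higher (9.77% in all). The median of the 41 genes was -0.07, and 33 of 41 lay below 0. With the replicate number as a block, 7 of 41 genes were called, where 13.2% of all genes tested were: LHCA1, PSBR, PSBW and PSAL were also lower, with log2 changes of -0.13 to -0.14, and PSBS was higher (0.13).

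The comparisons of nlp2-3, nlp7-1 and the double mutant share the Col-0 libraries. Against nlp7-1 the double mutant was lower in 21 of 41 genes and higher in 0 (4.23% of all genes tested were lower and 3.77% higher, 7.99% in all), with a median of -0.20. Against nlp2-3 it was lower in 35 of 41 and higher in 0 (12.9% of all genes tested were lower and 13.6% higher, 26.6% in all), with a median of -0.27. The count against nlp7-1 was 8 without nlp7-1 replicate 1 (921 over all genes) and 9 without double mutant replicate 3 (1028 over all genes).

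The interaction test compares the double mutant with what both single changes add up to. It was negative for 40 of the 41 genes and called for 8, all negative (1.64% of all genes tested were called in that direction, 2.12% in the other and 3.76% in all). The 8 genes were LHCA1, LHCA4, LHCA6, LHCB2.2, LHCB2.3, LHCB3, LHCB5 and PSBQ2, and DESeq2 called PSBP1 and PSBY as well. LHCB2.3 had the largest value, -0.51 ± 0.10 (edgeR adjusted p = 0.007): nlp2-3 differed from Col-0 by 0.21, nlp7-1 by -0.07 and the double mutant by -0.37. LHCB3 followed at -0.34 ± 0.08 (adjusted p = 0.011). These 2 genes kept their call under all 20 other settings, and the other 6 lost it under 6 to 14 of 20. The count of 8 was 2 without any of 5 single libraries (nlp2-3 replicate 1, double mutant replicate 2 or 3, nlp7-1 replicate 1 or 2). It was 3 without Col-0 replicate 2 or 3, 4 without nlp2-3 replicate 2 and 3 with RLE scaling. With 1 library left out, 489 to 647 of all genes were called.

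As shares of all counts, without scaling beyond the library total, the 42 genes took 12.2 to 13.1% in Col-0 shoots, 11.7 to 12.4% in nlp7-1 and 10.3 to 11.1% in the double mutant. The double mutant libraries lay below those of every other genotype. In every genotype but Col-4 the share fell with the replicate number, in the double mutant from 11.1 to 10.9 to 10.3%. In the double mutant the LHCA share was 1.63 ± 0.0867%, the LHCB share 5.37 ± 0.237%, the PSB share 2.27 ± 0.0710% and the PSA share 1.49 ± 0.0701% (SD, n = 3).

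**Figure D4:**
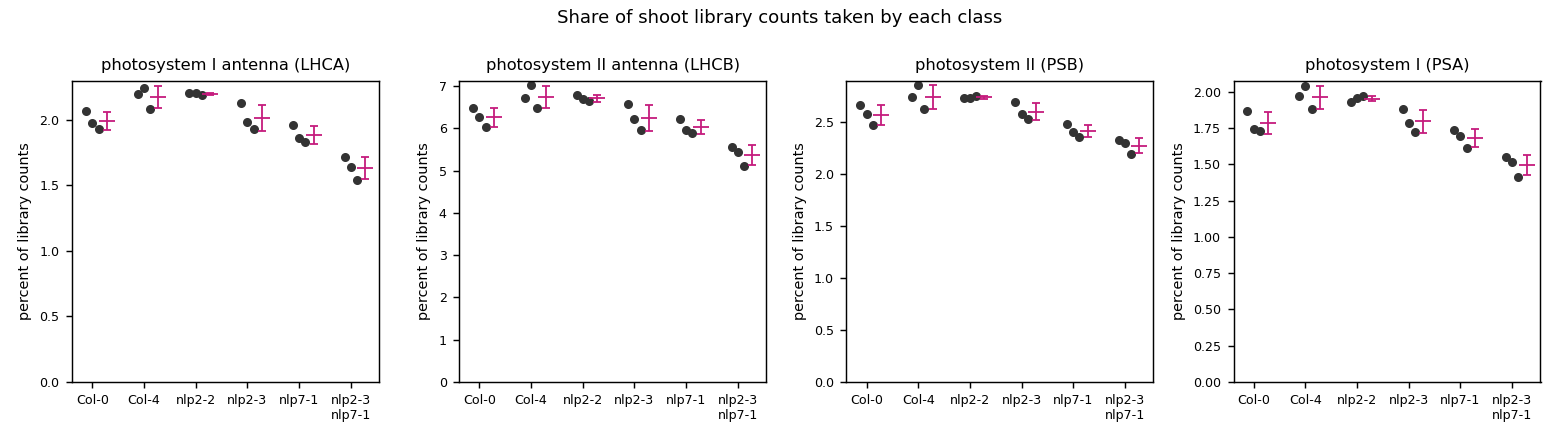
Percent of all counts taken by the LHCA, LHCB, PSB and PSA genes in each of the 18 shoot libraries (points), with the mean and SD of each genotype. In each of the 4 classes the double mutant has the lowest mean, and the means of Col-4 and nlp2-2 are above that of Col-0.

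The wild types themselves differed. In Col-4 the estimates of all 41 genes were above those of Col-0, with a median of 0.15 on the log2 scale, and edgeR called 4 higher: LHCB2.3 (0.34, adjusted p = 0.032), LHCB4.2 (0.29), PSAD2 (0.31) and PSAD1 (0.23). Of all genes tested 0.183% were called higher and 0.611% lower (0.794% in all). Every Col-4 library was above every Col-0 library for 22 of the 41 genes, as for 8.31% of all genes tested. The count of 4 was 20 with the replicate number as a block, which pairs these libraries (3.25% of all genes tested were called in that fit), 7 with DESeq2, and 0 without any of 4 single libraries (Col-0 replicate 2 or 3, Col-4 replicate 1 or 2). The morning clock gene CCA1 and the evening clock gene GI were lower in Col-4 by 0.50 and 0.41 (adjusted p = 0.007 and 0.0034). The part of the clock in the difference was not tested.

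The counts also depended on the choice of wild type, an alternative added after the values were seen. Against Col-4 the double mutant had 39 lower genes and 1 higher, with a median of -0.43 (34.2% of all genes tested were called in either direction), and nlp7-1 had 31 lower and 0 higher, with a median of -0.22 (14.3%). The nlp2-3 mutant had 9 lower genes against Col-4 (11.7%), and nlp2-2 had 10 higher genes against Col-0 (7.11%). PSBQ2 and LHCB4.3 were lower in nlp7-1 against either wild type: against Col-4 they fell by 0.49 ± 0.06 (edgeR adjusted p = 5.8e-06) and 0.58 ± 0.09 (adjusted p = 0.00014).

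In the rest of the photosynthetic apparatus of double mutant shoots, 4 of 12 electron carrier and cytochrome b6f genes were lower and 1 was higher (FD1, a leaf ferredoxin, 0.31), with a median of -0.07. All 3 measured nuclear ATP synthase genes were lower, with a median of -0.19. Of 19 carbon fixation genes 8 were lower and 0 higher, with a median of -0.08; PGK2, a phosphoglycerate kinase, fell by 0.40, CP12-2, a redox regulator of the Calvin cycle, by 0.30 and the Calvin cycle phosphatase SBPASE by 0.28. Of 22 chlorophyll synthesis genes 2 were lower and 1 was higher; PORA, a light-dependent protochlorophyllide reductase, fell by 1.63 from a low level of 2.12 ± 0.624 CPM in Col-0. Of 6 measured plastid-encoded photosystem genes psaA was lower, by 0.64. Of 22 assembly and repair genes 7 were higher and 5 lower. These counts stand against the 15.6% of all genes lower and 15.5% higher.

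ELIP1 and ELIP2, early light-induced proteins of the antenna family, rose in the double mutant. ELIP1 stood at 59.0 ± 9.90 CPM in Col-0, 145 ± 13.4 in nlp7-1 and 302 ± 17.3 in the double mutant, and ELIP2 at 29.3 ± 6.81, 72.0 ± 13.0 and 131 ± 7.63 (SD, n = 3). ELIP1 rose 5.11-fold (edgeR adjusted p = 2.8e-08) and ELIP2 4.45-fold (adjusted p = 5.1e-06) in the double mutant, and 2.46-fold and 2.44-fold in nlp7-1. In the same list of 15 genes for antenna adjustment and photoprotection, 5 were higher and 5 lower in the double mutant (15.5% and 15.6% of all genes tested). SOQ1, which limits a slow form of quenching, fell by 0.46 on the log2 scale.

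Of 17 regulators of photosynthesis genes, 6 were higher and 3 lower in the double mutant, where 15.5% of all genes tested were higher and 15.6% lower. CGA1, a GATA factor known to promote chloroplast development, stood at 11.8 ± 0.784 CPM in Col-0, 21.1 ± 2.72 in nlp7-1 and 21.9 ± 3.00 in the double mutant, a rise of 0.90 ± 0.12 (edgeR adjusted p = 1.8e-06) in the double mutant and of 0.84 in nlp7-1. GLK2, a factor that activates antenna genes, rose by 0.23 ± 0.06 (adjusted p = 0.0035), while its relative GLK1 was at 0.06 ± 0.05 (adjusted p = 0.46) and the GATA factor GNC at -0.08 ± 0.11 (adjusted p = 0.63). Of 10 measured clock genes 2 were higher, among them GI, by 0.56, while CCA1 was at -0.04 (adjusted p = 0.78) and its partner LHY at -0.34 (adjusted p = 0.18). Of 13 senescence and chlorophyll breakdown genes 2 were higher and 2 lower, and SGR1, which acts in chlorophyll breakdown, was at 0.18 (adjusted p = 0.073). The counts of higher clock genes and of senescence genes were near the shares over all genes tested.

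Some marker sums of leaf cell types differed between the double mutant and Col-0 without overlap, and others overlapped. The 4 mesophyll markers, which are themselves photosynthesis genes, summed to 36564 to 38441 CPM in Col-0 and 34294 to 35727 in the double mutant, and 2 of the 4 were lower. The 4 epidermis markers summed to 869 to 936 CPM in Col-0 and 1013 to 1085 in the double mutant, and 2 of the 4 were higher. The 4 guard cell markers summed to 52.4 to 56.9 and 41.4 to 46.1 CPM, and 1 of the 4 was lower, KAT1, a guard cell potassium channel, by 0.82. The 3 phloem markers summed to 169.8 to 172 and 158 to 192 CPM and the 3 markers of dividing cells to 12.8 to 20.4 and 14.0 to 16.6 CPM, both with overlap. The 3 flower markers summed to 0.767 to 0.984 and 0.128 to 0.247 CPM, near 0 in both groups. Of all genes tested 15.6% were lower and 15.5% higher. Of the 12 mesophyll, epidermis and guard cell markers 0 were at 0 in all libraries of a shoot group. The part of the cell types in the changes of the photosystem and antenna genes was not tested.

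In roots, a mostly non-green tissue, the 42 genes took 0.0136 to 0.0201% of the counts in the group means. All 33 genes that passed the filter on low counts in roots were higher in Col-0 shoots than in Col-0 roots (36.4% of all genes tested were called higher and 42% lower, 78.4% in all), with a median log2 difference of 10.26. The other 8 measured genes (LHCA5, LHCA6, LHCB1.4, LHCB2.3, LHCB4.3, PSBS, PSAE1 and PSAG) entered this fit through their shoot counts alone, so their difference was fixed by the filter and is not counted. LHCB1.2 is among the 33, but it passed the filter in roots only through mutant libraries in which it was high. Its difference in Col-0 is therefore not read as a result. Scaling by library totals in place of TMM moved the median of all genes in this comparison from -0.08 to -0.80, and all 33 kept their call. The lowest ratios of mean FPKM were those of LHCB4.1 at 315-fold, PSBO1 at 328-fold and PSAE2 at 339-fold, an order that was not tested. The LHCB1 copies differed in roots: LHCB1.3 stood at 20.5, 44.7 and 77.3 CPM in the Col-0 root libraries (450, 827 and 1550 counts), while LHCB1.2 had 3, 1 and 2 counts and LHCB1.1 5, 4 and 16 counts in the same libraries. In Col-0 shoots LHCB1.2 stood at 4731, 4493 and 4139 CPM.

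In roots few of the 33 measured genes were called. In nlp2-2 against Col-4 edgeR called 0 (7.12% of all genes tested, 3.2% higher and 3.91% lower). An unadjusted p under 0.05 was found for 3 of the 33, a smaller share than the 3873 of all 20486 genes tested. DESeq2 called 1 and limma 0. The fit without nlp2-2 replicate 3 called 2 (1395 over all genes). The replicate block, which pairs these libraries, called 2 (8.58% of all genes tested). In nlp7-1 against Col-0 edgeR called 0 (7.94% of all genes tested, 4.5% higher and 3.45% lower). An unadjusted p under 0.05 was found for 6 of the 33, a smaller share than the 4377 of all 20486 genes tested. DESeq2 and limma called 0, and the fit without Col-0 replicate 1 called 3 (1773 over all genes). In nlp2-3 against Col-0 PSBO1 was lower, from 11.8, 15.1 and 20.4 to 8.433, 12.15 and 10.97 CPM, a log2 change of -0.58 ± 0.17 (edgeR adjusted p = 0.049; 3.48% of all genes tested were lower, 3.36% higher and 6.84% called in all). The ranges overlapped slightly. That call was lost without Col-0 replicate 2 or 3 or nlp2-3 replicate 1 or 3. Without Col-0 replicate 1, 4 genes were called (1328 over all genes). The replicate block, which pairs these libraries, called 4 (8.35% of all genes tested).

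In double mutant roots 5 of 33 genes were lower and 1 was higher (12.2% of all genes tested were lower and 12.9% higher, 25.2% in all). The count of lower genes was near its share over all genes, and the total was below its share. These counts are not read as a result about the genes as a set. LHCB5 stood at 11.4, 19.2 and 23.3 CPM in Col-0 roots and 4.19, 8.28 and 8.26 in the double mutant, and LHCA4 at 13.6, 20.3 and 24.8 against 6.81, 11.3 and 10.6. The groups did not overlap. LHCB5 fell by 1.37 ± 0.28 (edgeR adjusted p = 0.0016), LHCA4 by 1.03 ± 0.26 (adjusted p = 0.0082), PSAN by 1.12, PSBP1 by 0.78 and PSBO1 by 0.69. LHCB1.2 was higher, with 5, 24 and 23 counts against 3, 1 and 2 in Col-0, a call lost without any of 4 libraries (replicate 2 or 3 of Col-0, replicate 2 or 3 of the double mutant). LHCB1.2 passed the filter in roots only through mutant libraries in which it was high, so that call is not a result.

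The root libraries differed by replicate number. In Col-0 roots the 42 genes took 0.0120% of the counts in replicate 1 and 0.0291% in replicate 3. Replicate 1 had the lowest share in every genotype, with 0.00930, 0.0165 and 0.0150% in replicates 1 to 3 of the double mutant. The median of the 33 genes in the double mutant was -0.51 with all libraries and 0.01 without Col-0 replicate 3. In that fit 2 genes were called (4159 over all genes), and the calls of PSAN, PSBP1, PSBO1 and LHCB1.2 were lost. Without Col-0 replicate 1, 12 genes were called (4696 over all genes). The calls of PSAN and PSBP1 were also lost without double mutant replicate 1.

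The difference between the shoot and the root effect was called for 0 of 41 genes in nlp2-2. Of all genes tested 2.64% were called, 1.27% with the higher value in shoots and 1.37% with the lower. An unadjusted p under 0.05 was found for 6 of the 41 genes, and for 3102 of all 21554 genes tested. DESeq2 called 2 and limma 0. The difference was called for 2 genes in nlp2-3 (4.23%, 1.41% and 2.83%) and for 1 in nlp7-1 (6.39%, 3.02% and 3.38%). In the double mutant it was called for 6 (23.2%, 11.9% and 11.3%). These counts were near or below the shares over all genes tested. The 2 genes in nlp2-3 and 4 of the 6 in the double mutant had the higher value in shoots. The gene called in nlp7-1, LHCB4.3, and 1 of the 6 in the double mutant, PSBS, did not pass the filter in roots and stood in this fit through their shoot counts, which leaves 0 and 5 called among the 33 genes that passed it. Of these 5, LHCB1.2 passed it only through mutant libraries in which it was high, so its call is not a result. For nlp2-3 the count was 7 without Col-0 root replicate 1, 4 without nlp2-3 root replicate 2, 1 without nlp2-3 root replicate 1 or shoot replicate 2 or 3, and 0 without Col-0 root replicate 3, Col-0 shoot replicate 2 or 3, nlp2-3 root replicate 3 or nlp2-3 shoot replicate 1. For nlp7-1 it was 6 without Col-0 root replicate 1, 2 without Col-0 root replicate 3 or nlp7-1 root replicate 1, and 0 without Col-0 root replicate 2 or nlp7-1 root replicate 3. For the double mutant it was 10 without Col-0 root replicate 1 and 3 without Col-0 root replicate 3, Col-0 shoot replicate 3 or double mutant shoot replicate 1. For nlp2-2 it was 2 without nlp2-2 root replicate 3 and 1 without Col-4 root replicate 2. Over all genes, fits with 1 library left out called 661 to 1056 for nlp2-3 and 802 to 1731 for nlp7-1. They called 4120 to 5006 for the double mutant and 399 to 628 for nlp2-2.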

How the data were processed

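RNA from 18 shoot and 18 root libraries was sequenced from plants grown as described above. Per the labels, libraries were made with a NEBNext Ultra kit and indexed. Reads were handled with HISAT2 and HTSeq on TAIR10, per the submitters' processing notes; versions, strand setting and annotation release are not given in the sources used here. The authors deposited raw counts per gene, whole numbers with 1 column per library, and a table of FPKM, scaled per length and library size. FPKM served for levels between genes and for an alternative test.

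Counts were filtered with filterByExpr (minimum count 10, total 15), scaled by TMM and fitted with edgeR 4.0.16 in R 4.3.3 (robust quasi-likelihood, 1 mean per genotype, 12 residual degrees of freedom in each tissue, 24 in the fit of both), with two-sided p adjusted over 19137 genes in shoots, 20486 in roots and 21554 in both. CPM are TMM-scaled. Each p-value reflects only how far these replicates, labelled biological, spread. The depth per library is given above and sets the precision of low genes. The procedure was run on simulated counts in which a small random set of genes changed in either direction. A set of abundant genes that falls together was not simulated. Alternatives were RLE scaling, library totals, TMM without photosynthesis genes, no filter, DESeq2 1.42.0, limma 3.58.1 on log2(FPKM + 1) or log2(FPKM + 0.1), a replicate block, leaving out each library, and the other wild type. The numbers pair the libraries where every same-numbered pair correlates above 0.1 in its deviations from the group means: in shoots nlp2-2 with Col-4 (0.12 to 0.26), nlp2-3 with Col-0 (0.15 to 0.17), nlp7-1 with Col-0 (0.13 to 0.19) and Col-4 with Col-0 (0.12 to 0.24), and in roots nlp2-2 with Col-4 (0.15 to 0.29) and nlp2-3 with Col-0 (0.25 to 0.50). The source of the pairing is the replicate number in the titles, and the labels do not say what it marks.

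The members and the lists of other genes were chosen with earlier results of these data known. All 42 genes may be named, with full statistics for up to 4 called genes per class, LHCA5, LHCA6, LHCB2.3, LHCB4.3 and the 5 paralog pairs; of the other lists up to 3 called genes with the largest change are named, and GLK1, GLK2, GNC, CGA1, CCA1, LHY, SGR1, NLP2 and NLP7 whether called or not. Gene names and promoter windows come from RefSeq for TAIR10.1; the deposited tables carry no coordinates.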

Additional observations from a re-analysis of the deposited data

Results flagged for a closer look

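For 9 effects the difference between shoots and roots was itself called (edgeR, fit of all 36 libraries, log2 shoot effect minus root effect). In nlp2-3 against Col-0 it was 0.86 for LHCB5 and 0.60 for PSBO1 (4.23% of all genes tested were called). These 2 of 41 genes are near that share, and the count ran from 0 to 7 when 1 library was left out. In nlp7-1 it was -2.87 for LHCB4.3 (6.39% called), which had 1 count in each Col-0 root library and 2, 5 and 10 in nlp7-1 roots. In the double mutant it was 0.77 for LHCA4, 1.08 for LHCB5, 0.51 for PSBO1 and 0.81 for PSAN, each lower by more in roots than in shoots. For LHCB1.2 it was -3.04 and for PSBS -1.96 (23.2% called). These 6 of 41 genes are below that share. With 1 library left out, the count ran from 3 to 10 and the median of the genes from -0.31 to 0.45. PSBS had 1, 3 and 1 counts in Col-0 roots and 1, 15 and 12 in the double mutant. LHCB4.3 and PSBS did not pass the filter on low counts in roots and stand in this fit through their shoot counts, and LHCB1.2 passed it only through mutant libraries in which it was high, so these 3 values are given without a reading of a difference between tissues.

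For 8 genes the effect of nlp7-1 differed between plants with and without nlp2-3. The interaction was -0.30 for LHCA1, -0.26 for LHCA4, -0.29 for LHCA6, -0.27 for LHCB2.2, -0.51 for LHCB2.3, -0.34 for LHCB3, -0.25 for LHCB5 and -0.31 for PSBQ2. The calls for LHCB2.3 and LHCB3 were kept under all 20 other settings, and the other 6 were lost under 6 to 14 of 20.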

How the results depend on the processing

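The double mutant count over Col-0 (34 of 41) stayed within 1.5 times under every alternative run, from 29 to 35 when 1 library was left out. Of the 576 values of single genes called there and in nlp7-1, 558 kept their call, 18 lost it and 0 reversed; the genes were LHCB1.2, PSBO1, PSBO2, PSBR, PSBS and PSAG. Other counts moved; the cause was not tested unless fewer samples entered the fit. The interaction count (8) was 3 with RLE scaling, 5 with library totals, 3 with TMM without photosynthesis genes, 3 with limma at either pseudocount and 21 with the replicate block. For nlp7-1 in shoots (2) it was 5 with library totals, 6 with limma at either pseudocount, 7 with the block and 31 with Col-4 as the wild type. For nlp2-3 in shoots (0) it was 1 with library totals, 1 with limma at either pseudocount, 3 with the block and 9 with Col-4; for nlp2-2 (0) it was 10 with Col-0. Col-4 over Col-0 (4) gave 7 with DESeq2, 20 with the block and 2 with only the groups compared. In roots nlp2-3 (1) gave 0 with library totals, without a filter, with limma at either pseudocount or with only the groups compared, 3 with DESeq2 and 4 with the block; nlp2-2 (0) gave 1 with DESeq2 or only the groups compared and 2 with the block; nlp7-1 (0) gave 4 with the block; the double mutant (6) gave 11 with the block and 3 with only the groups compared. The difference between tissues for nlp2-3 (2) gave 4 with library totals or DESeq2, 1 without a filter and 0 with limma at either pseudocount; for nlp7-1 (1) 2 with library totals or the block and 3 with DESeq2; for nlp2-2 (0) 2 with DESeq2; for the double mutant (6) 3 with limma at a pseudocount of 0.1.

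With 1 library left out, the counts ran from 0 to 0 for nlp2-2, 0 to 1 for nlp2-3, 2 to 2 for nlp7-1, 8 to 22 for the double mutant over nlp7-1, 27 to 36 over nlp2-3, 0 to 5 for Col-4 over Col-0 and 2 to 12 for the interaction; in roots from 0 to 2 for nlp2-2, 0 to 4 for nlp2-3, 0 to 3 for nlp7-1 and 2 to 12 for the double mutant; for the difference between tissues from 0 to 2, 0 to 7, 0 to 6 and 3 to 10 in the same order. Over all genes the shoot fits called 338 to 540 for nlp2-2, 755 to 1065 for nlp2-3 and 955 to 1595 for nlp7-1. They called 4794 to 5123 for the double mutant over Col-0, 921 to 1185 over nlp7-1 and 3916 to 4407 over nlp2-3. For Col-4 over Col-0 it was 50 to 205. In roots it was 846 to 1395 for nlp2-2, 855 to 1439 for nlp2-3, 1010 to 1773 for nlp7-1 and 4094 to 4696 for the double mutant. The comparison of Col-0 tissues gave 41 each time. That count includes the 8 genes that did not pass the filter in roots, whose difference was fixed by the filter. It also includes LHCB1.2, whose difference is not read as a result. In the comparisons of the double mutant and of nlp7-1 roots, not every same-numbered pair correlated above 0.1. These libraries were not taken as paired. Their same-numbered correlations ran from -0.11 to 0.17. In shoots 3 of 6 samples correlated best with their own number for the double mutant with Col-0, and 3 of 6 with nlp7-1. With nlp2-3 it was 6 of 6, at 0.05 to 0.12, so pairing in that comparison was not settled. In double mutant shoots the block called 37 of 41 genes over Col-0, 29 over nlp7-1 and 36 over nlp2-3. Without the block 31.1%, 7.99% and 26.6% of all genes tested were called. The share of all genes called with the block is not given here, so these block counts are not read as a result about the members. The same holds for the other block counts given without such a share. Root counts of LHCB1.1, LHCB1.2, LHCB4.3 and PSBS were often under 20 per library, which limits those values.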
